A study of Mus musculus with 15 samples.

Results

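The 8 genes described here, Gap43, Basp1, Stmn2, Stmn4, Islr2, Plppr4, Nsg1 and Nrsn2, encode proteins of the growth cone and of growing neurites. They were taken as the rows of the count table whose Ensembl identifier maps to these symbols, which gave 8 of 39179 genes, and all 8 were among the 16976 genes tested. They were picked as growth cone and neurite outgrowth genes, with earlier results of the same libraries known. The members are therefore counted as chosen by their knockout and injury differences in these libraries, although no record says which of these values led to the choice. Their levels, fold changes and adjusted p are accordingly given as descriptions, and none of them is independent support for a direction. Symbols were checked against identifiers in GENCODE M21, and each of the 8 was annotated as a protein-coding gene.

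Messenger RNA was sequenced from lumbar 4-6 dorsal root ganglia (DRG), which hold the cell bodies of the sensory neurons of the hind limb, in 15 mice aged 3-6 months on a mixed, mostly C57bl6 background. Knockout mice (Wnt1-Cre; mirflox/flox) lacked the miR-183 cluster, which encodes the microRNAs miR-183, miR-96 plus miR-182, in cells that descend from Wnt1-expressing precursors. Control mice carried Wnt1-Cre alone or were wild type. Each genotype was sampled naive or after spared nerve injury (SNI), an operation that ties and cuts the common peroneal and tibial branches of the sciatic nerve and keeps the sural branch. The 4 groups were control naive (5 libraries, replicates 1, 2, 3, 6 and 7), knockout naive (4 libraries, replicates 4, 5, 8 and 9), control SNI (3 libraries, replicates 15, 18 and 23) and knockout SNI (3 libraries, replicates 13, 19 and 21). Control naive replicate 7 and control SNI replicates 18 and 23 were wild type, and all other control animals carried Wnt1-Cre. Each library came from 1 animal. Wnt1-Cre acts in the neural crest from embryonic life on, so that sensory neurons, satellite glia and Schwann cells all derive from recombined cells, and the ganglion was sequenced in bulk. The ganglia of injured mice hold neurons whose axons were cut beside neurons whose axons were spared, in shares that the labels do not state. Nor do they state how long after injury the ganglia were taken.

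The libraries held 5252920 to 10822762 counts, and control SNI replicate 23 had the fewest. That library also had 7.43% of its counts in mitochondrial genes, against 2.26% to 3.6% in the others. The deletion could not be read from the data, since Mir183 had 0, Mir96 had 1 and Mir182 had 2 counts over the 15 libraries. All 12 sensory neuron markers were detected. They summed to 7730 to 9840 CPM (read counts scaled to a common library total) per library. Of 6 markers of central neurons and glia, Olig2, a marker of oligodendrocytes, had 2 counts in all and Gad2 had 35. Slc17a7 had 18804, Aqp4 1728, Slc1a2 1721 and Gad1 125 counts, and the 6 summed to 119 to 223 CPM per library. Whether any of these came from central tissue was not tested. Animal numbers were 1041 to 1082 for naive mice, 974 to 976 for control SNI and 948 to 956 for knockout SNI, so that whatever the number ranges stand for cannot be told apart from injury, nor from genotype among the injured mice.

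A growth cone is the motile tip of an extending axon, where membrane is added, actin filaments push the edge forward and microtubules are assembled and taken apart. Gap43 and Basp1 are acylated proteins of its inner membrane face that gather around phosphoinositides, and Gap43 is a classical marker of regenerating sensory neurons. Stmn2 and Stmn4 are stathmins that bind tubulin, Islr2 and Plppr4 are transmembrane proteins of the neuronal surface, and Nsg1 and Nrsn2 sit in endosomes and vesicles. MicroRNAs bind messenger RNAs mainly through their seed, bases 2 to 8 from the 5′ end, and commonly lower the level of the messenger RNA they bind.

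The 3 microRNAs removed in the knockout have closely related seeds, and no pair of them shares an identical one. Their mature sequences, as given by RefSeq (GRCm38.p6) on the minus strand of chromosome 6, are shown because the matches in the 8 genes are read from them, with the seed in capitals.
mmu-miR-183-5p: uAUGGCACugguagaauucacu
mmu-miR-96-5p: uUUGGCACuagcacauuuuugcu
mmu-miR-182-5p: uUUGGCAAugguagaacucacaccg

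The longest annotated 3′ untranslated region (UTR) of each gene was searched on its sense strand for matches to these seeds. A 7mer-m8 match is the complement of the seed, which is GTGCCAT for miR-183-5p, GTGCCAA for miR-96-5p and TTGCCAA for miR-182-5p. An 8mer match adds an A after it. The matches are printed on the strand of the gene, 5′ to 3′, with the match in capitals, on the GRCm38 build. They are shown because 6 of the 8 genes carried a match to the same microRNA, miR-96-5p.
Gap43, miR-96-5p, chr16:42248499-42248527, minus strand: ataaagcaaatGTGCCAAttagcgtaact
Basp1, miR-96-5p, chr15:25363780-25363808, minus strand: ccacaggaccaGTGCCAAggcaatcagat
Stmn2, miR-183-5p, chr3:8561162-8561190, plus strand: cttatctgtggGTGCCATgggtgatgatg
Stmn2, miR-96-5p, chr3:8561410-8561438, plus strand: gcagggcatttGTGCCAAgtataagaatc
Plppr4, miR-96-5p, chr3:117321514-117321542, minus strand: actttctgaatGTGCCAActtaatggagt
Plppr4, miR-96-5p, chr3:117320674-117320702, minus strand: tgaaactgtgcGTGCCAAtgccagatacg
Plppr4, miR-182-5p, chr3:117320153-117320181, minus strand: acactcaacgaTTGCCAAgagagggggag
Plppr4, miR-96-5p, chr3:117319626-117319655, minus strand: tctactcaaaaGTGCCAAAggctacagttt
Nsg1, miR-96-5p, chr5:38137337-38137366, minus strand: gcaatacacatGTGCCAAAacttgtctgta
Nrsn2, miR-96-5p, chr2:152369406-152369434, minus strand: tcctctcagtaGTGCCAAtctctctagga

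Plppr4 held the most matches, 1 8mer and 3 7mer-m8 in a UTR of 2767 bases. The only other 8mer lay in Nsg1, in a UTR of 1480 bases. Both 8mers end in the letters TGCCAAA, which also match bases 2 to 7 of miR-182-5p followed by an A, so that the same bases are shared by both microRNAs. Gap43, with 587 UTR bases, Basp1, with 952, and Nrsn2, with 746, held 1 7mer-m8 match each, and Stmn2, with 1281, held 2. No 8mer or 7mer-m8 match was found in the 632 UTR bases of Stmn4 or the 1441 of Islr2. Of the 14466 tested genes with an annotated 3′ UTR, 1563 (10.8%) held an 8mer or 7mer-m8 match to miR-96-5p, against 6 of the 8 genes (75%). Among the 7973 genes with a UTR between the shortest and longest of the 8, the share was 9.78%. For any of the 3 microRNAs, the share was 29.4% of all tested genes with a UTR (4250), against the same 6 of 8. A match is a description of the letters and not evidence of binding, and the choice of the 8 genes may have taken such matches into account.

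**Figure D1:**
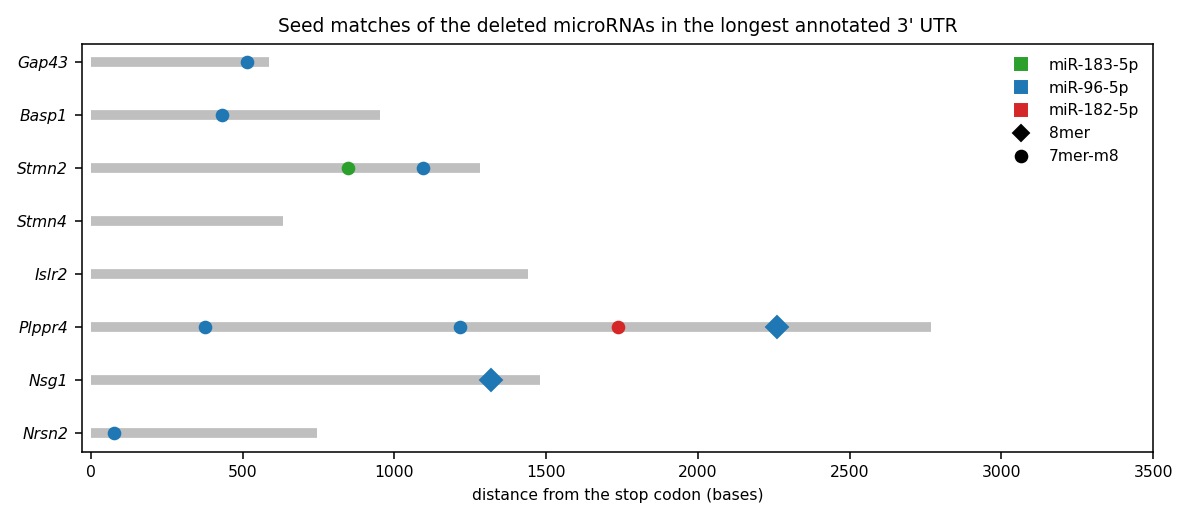
Positions of seed matches to the 3 deleted microRNAs in the longest annotated 3′ UTR of each gene, in bases from the stop codon (x axis), with grey bars giving the length of the UTR, colours the microRNA, diamonds 8mers and circles 7mer-m8 matches. Plppr4 has the longest UTR and 4 matches, and Stmn4 and Islr2 have none.

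The 8 genes differed widely in abundance. Levels are CPM scaled with TMM factors, and between genes they are compared only after division by the length of the gene's exons in kb. In control naive ganglia, Stmn2 was the most abundant, with 320 ± 21.4 CPM per kb (SD, n = 5), followed by Gap43 with 128 ± 12.8 CPM per kb. Basp1 had 41.3 ± 3.82 and Nsg1 24.6 ± 0.958 CPM per kb. Stmn4 (6.44 ± 1.12), Nrsn2 (2.68 ± 0.497), Plppr4 (1.31 ± 0.101) and Islr2 (0.994 ± 0.248 CPM per kb) were the least abundant. The smallest count of any of the 8 genes in any library was 15, for Islr2 in control SNI replicate 23. Summed over the 8 genes, the level was 1980 to 2310 CPM in control naive, 2520 to 2690 in knockout naive, 2710 to 3850 in control SNI and 3320 to 3750 in knockout SNI. The share of that sum that belonged to Gap43 was 8.94%, 13.8%, 12.8% and 16.4% in the same order. Neither the sum nor the share was divided by exon length, so that genes with long exons weigh more in both. They are given to compare the groups and not the abundance of the genes.

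Gap43 (chromosome 16, 42248442 to 42340651, minus strand) was lowest in control naive ganglia and highest in knockout ganglia after injury. Its level was 180, 219, 201, 171 and 204 CPM in the 5 control naive libraries and 369, 353, 369 and 338 CPM in the 4 knockout naive libraries. After injury it was 335, 461 and 402 CPM in control and 508, 627 and 572 CPM in knockout libraries. Every knockout naive library lay above every control naive library, and every knockout SNI library above every control SNI library. The knockout naive and control SNI ranges overlapped, and these groups were not tested against each other. In bulk samples such as these, fewer or more cells of a type and less or more RNA per cell cannot be told apart.

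In naive ganglia, Gap43 was 1.83-fold higher in knockout than in control (log2 0.87, SE 0.099, 95% interval 0.66 to 1.08, edgeR adjusted p = 0.000111 over all genes tested). Injury raised it 2.05-fold in control (log2 1.03, SE 0.106, adjusted p = 1.58e-05) and 1.59-fold in knockout mice (log2 0.67, SE 0.112, adjusted p = 0.00121). After injury the knockout was 1.42-fold above control, and this did not pass the threshold of 0.05 (log2 0.51, SE 0.121, 95% interval 0.26 to 0.77, adjusted p = 0.0536). Its adjusted p was below that threshold when control SNI replicate 15, control SNI replicate 18 or knockout SNI replicate 13 was left out, and it ranged from 0.0217 to 0.234 over the 6 such fits. With DESeq2 the same difference gave an adjusted p of 0.00333. Over all 15 alternatives its adjusted p reached 0.553, and 0 of all genes passed with only the groups compared in the fit. With Wnt1-Cre controls only, which leaves 1 control SNI library assumed to vary like the other groups, it was log2 0.76 (adjusted p = 0.0155). The injury effect was smaller in knockout than in control by 0.36 on the log2 scale (difference -0.36, SE 0.156, 95% interval -0.69 to -0.03), with an unadjusted p of 0.0336 and an adjusted p of 0.365 in edgeR. That adjusted p was 0.0521 without control SNI replicate 15, the lowest over the 15 fits that left out a library. Without that replicate, the control SNI group holds only wild type mice. With Wnt1-Cre controls only, the difference between the injury effects was -0.13 (adjusted p = 0.962). Of the control animals, 1 of 5 naive and 2 of 3 SNI mice were wild type.

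Basp1 (chromosome 15, 25363277 to 25413764, minus strand) is a membrane-bound relative of Gap43 in function. Its level was 78.8, 95.6, 75.3, 83.3 and 81.8 CPM in control naive and 102, 109, 105 and 116 CPM in knockout naive libraries. It was 109, 97.1 and 108 CPM in control SNI and 141, 128 and 121 CPM in knockout SNI libraries. The order of the groups was the one seen for Gap43 apart from the middle pair, which overlapped, and the steps were smaller. In naive ganglia Basp1 was 1.30-fold higher in knockout (log2 0.38, SE 0.0813, edgeR adjusted p = 0.021). This call was lost when any of control naive replicates 1, 3, 6 or 7 or knockout naive replicates 5, 8 or 9 was left out, with adjusted p between 0.0125 and 0.11 over the 9 fits. Injury gave a log2 difference of 0.34 (SE 0.0886, adjusted p = 0.0548) in control and 0.27 (SE 0.0921, adjusted p = 0.0718) in knockout mice, and the injured libraries lay above all naive ones in both genotypes. The first of these passed without control naive replicate 2 (adjusted p = 0.0221), with RLE scaling (0.045) and with DESeq2 (0.00985). The second passed with DESeq2 (0.0289) and with only the groups compared in the fit (0.0168). After injury the knockout libraries all lay above the control ones, with a log2 difference of 0.31 (SE 0.0994, adjusted p = 0.119). It passed without control SNI replicate 15 (adjusted p = 0.035) and with DESeq2 (adjusted p = 0.0389).

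**Figure D2:**
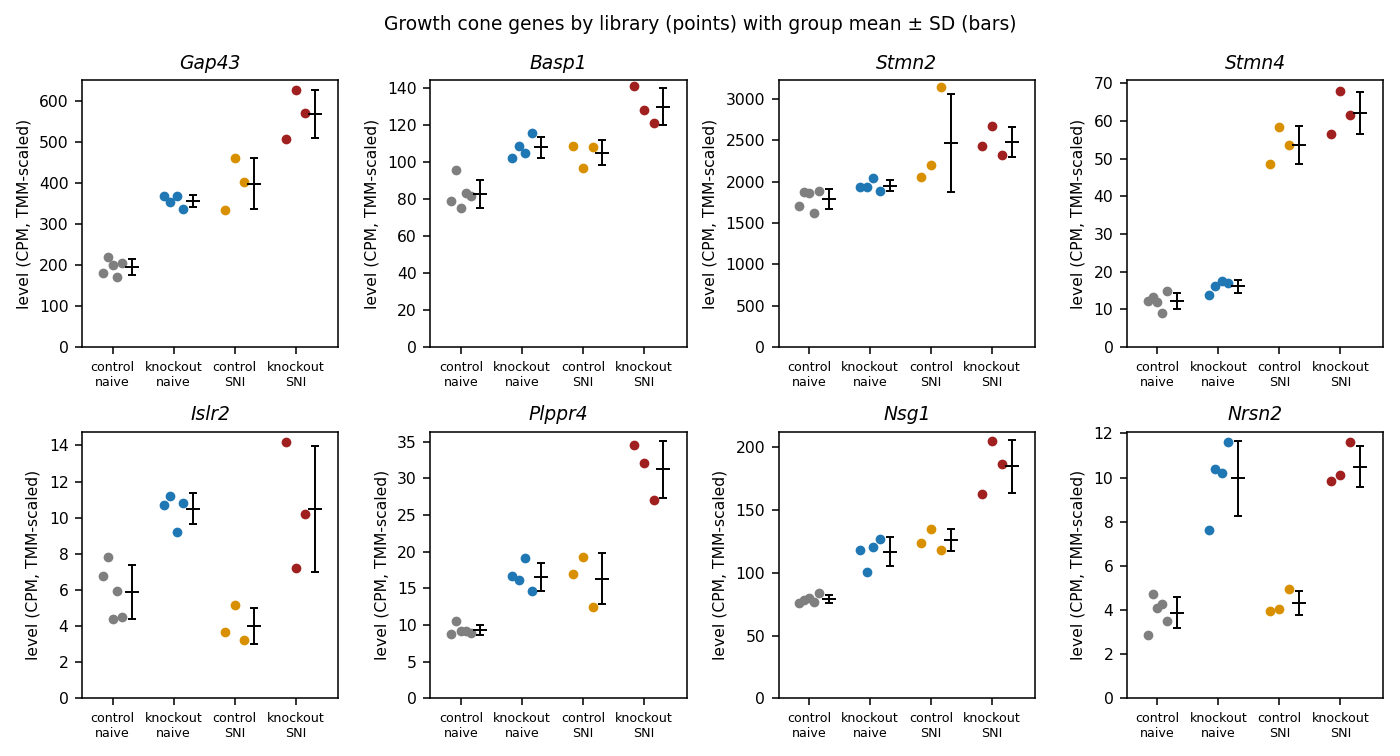
Level of each of the 8 genes (y axis, CPM scaled with TMM factors, each axis starting at 0) in the 15 libraries, with 1 point for a library, colours for the 4 groups, and the mean ± SD of the group beside the points. Gap43, Plppr4 and Nsg1 are lowest in control naive, intermediate and overlapping in knockout naive and control SNI, and highest in knockout SNI, whereas Stmn4 separates by injury and Nrsn2 by genotype.

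Stmn4 and Stmn2, the stathmins among the 8 genes, separated by injury. Stmn4 (chromosome 14, 66344296 to 66361680, plus strand), a tubulin-binding protein, was at 12.3, 13.3, 12, 9.11 and 15 CPM in control naive and 13.8, 16.2, 17.5 and 17.1 CPM in knockout naive libraries. After injury it was at 48.5, 58.4 and 53.7 CPM in control and 56.7, 67.9 and 61.6 CPM in knockout libraries. All injured libraries lay far above all naive ones, and within each condition the genotypes overlapped. Injury raised Stmn4 4.34-fold in control (log2 2.12, SE 0.129, edgeR adjusted p = 3.34e-08) and 3.85-fold in knockout mice (log2 1.94, SE 0.135, adjusted p = 8.55e-08). These were the largest differences of any of the 8 genes in any comparison. The knockout differed from control by log2 0.39 in naive ganglia (SE 0.126, 95% interval 0.12 to 0.65, adjusted p = 0.168) and 0.21 after injury (SE 0.139, 95% interval -0.08 to 0.51, adjusted p = 0.362). With Wnt1-Cre controls only, the naive difference was log2 0.47 and passed (adjusted p = 0.0289).

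Stmn2 (chromosome 3, 8509360 to 8561606, plus strand), also named SCG10, is a stathmin of growing axons that promotes the disassembly of microtubules. Its level was 1710, 1880, 1860, 1620 and 1890 CPM in control naive and 1940, 1940, 2040 and 1890 CPM in knockout naive libraries. After injury it was 2060, 2200 and 3150 CPM in control and 2430, 2670 and 2320 CPM in knockout libraries. The value of 3150 CPM belongs to control SNI replicate 23, the library with the fewest counts and the highest mitochondrial share, and the part of these in the result was not tested. Injury raised Stmn2 1.38-fold in control (log2 0.46, SE 0.114, edgeR adjusted p = 0.0394). Without replicate 23 the log2 difference was 0.26 and the adjusted p 0.0894, and the call was also lost when any 1 of the 5 control naive libraries was left out (adjusted p 0.0543 to 0.0911). It was lost as well with library totals alone (0.0534), limma-voom (0.0517), only the groups compared (0.221) and Wnt1-Cre controls only (log2 0.24, adjusted p = 0.302). In knockout mice injury gave log2 0.34 (SE 0.12, adjusted p = 0.0788), which passed with DESeq2 (0.0449) and with only the groups compared (0.0039). The genotypes differed by log2 0.12 in naive ganglia (95% interval -0.10 to 0.35, adjusted p = 0.765) and by 0 after injury (95% interval -0.27 to 0.27, adjusted p = 0.994). Stmn2 carried 2 seed matches, 1 of them to miR-96-5p, and its genotype difference was the smallest of the 8 genes in both conditions.

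The surface proteins parted from each other in their response to injury. Plppr4 (chromosome 3, 117319139 to 117360876, minus strand), also named PRG-1, is a lipid phosphatase-related protein that acts on bioactive lysophospholipid signalling. Its level was 8.76, 10.6, 9.24, 9.2 and 8.86 CPM in control naive and 16.7, 16.1, 19.2 and 14.6 CPM in knockout naive libraries. After injury it was 17, 19.3 and 12.5 CPM in control and 34.5, 32.1 and 27 CPM in knockout libraries. Uninjured knockout and injured control ganglia overlapped, and injured knockout ganglia lay above all others. Knockout exceeded control 1.79-fold in naive ganglia (log2 0.84, SE 0.127, edgeR adjusted p = 0.00153) and 1.89-fold after injury (log2 0.92, SE 0.15, adjusted p = 0.00561). The call after injury was lost with only the groups compared in the fit (log2 0.92, adjusted p = 0.422). Injury raised it 1.77-fold in control (log2 0.83, SE 0.139, adjusted p = 0.00225) and 1.87-fold in knockout mice (log2 0.90, SE 0.137, adjusted p = 0.000515). The difference between the injury effects was log2 0.08 (95% interval -0.34 to 0.50, adjusted p = 0.875). In exons, 65 bases of Plppr4 lie opposite the predicted microRNA gene Gm22408, which had group means of 0.251 to 2.00 CPM. Its log2 differences had the sign of those of Plppr4, at 1.64 in naive knockout (adjusted p = 0.0879), 1.09 in knockout after injury (0.153), 1.83 with injury in control (0.0651) and 1.28 with injury in knockout (0.0425).

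Islr2 (chromosome 9, 58196297 to 58204319, minus strand), also named Linx, is a leucine-rich repeat and immunoglobulin domain protein of axon membranes. It had 6.79, 7.81, 4.39, 5.92 and 4.52 CPM in control naive and 10.7, 11.2, 9.22 and 10.8 CPM in knockout naive libraries. After injury it had 3.65, 5.16 and 3.24 CPM in control and 14.2, 7.2 and 10.2 CPM in knockout libraries. Knockout libraries lay above control libraries in both conditions, and naive and injured libraries of the same genotype overlapped. Knockout exceeded control 1.79-fold in naive ganglia (log2 0.84, SE 0.202, edgeR adjusted p = 0.0409) and 2.53-fold after injury (log2 1.34, SE 0.266, adjusted p = 0.0224). The naive call was lost when any library but control naive replicate 2 was left out (adjusted p 0.0344 to 0.138 over the 9 fits). The call after injury was lost without knockout SNI replicate 13 or knockout SNI replicate 21 (adjusted p 0.013 to 0.0764 over the 6 fits). It was also lost with limma-voom (0.0502) and with only the groups compared in the fit (0.49). With Wnt1-Cre controls only, a fit that leaves 1 control SNI library, it was lost as well, at log2 1.5. Injury gave log2 -0.51 in control (SE 0.25, 95% interval -1.04 to 0.02, adjusted p = 0.338) and -0.01 in knockout mice (SE 0.224, 95% interval -0.48 to 0.47, adjusted p = 0.99). Islr2 had no seed match in the searched UTR. It shares 181 exonic bases with its neighbour Islr on the same strand. The log2 difference of Islr between knockout and control was -0.32 in naive ganglia (adjusted p = 0.493) and -0.46 after injury (adjusted p = 0.192). In exons, 55 bases of Islr2 lie opposite the transcribed pseudogene 1600029O15Rik, with means of 0.368 CPM in control naive and 0.831 CPM in knockout naive ganglia. After injury its means were 0.599 CPM in control and 0.611 CPM in knockout.

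Of the endosomal and vesicle proteins, Nsg1 moved with both genotype and injury and Nrsn2 with genotype. Nsg1 (chromosome 5, 38137192 to 38159907, minus strand), also named NEEP21, takes part in the sorting of receptors through neuronal endosomes. It had 76.2, 78.3, 80.1, 76.9 and 83.9 CPM in control naive and 118, 101, 121 and 127 CPM in knockout naive libraries. After injury it had 124, 135 and 118 CPM in control and 163, 205 and 187 CPM in knockout libraries. The control naive libraries were tightly grouped and below all others, the middle groups overlapped, and the knockout SNI libraries were above all others. Knockout exceeded control 1.48-fold in naive ganglia (log2 0.56, SE 0.085, edgeR adjusted p = 0.00149) and 1.47-fold after injury (log2 0.55, SE 0.104, adjusted p = 0.0158). The second call was lost without knockout SNI replicate 19 or knockout SNI replicate 21 (adjusted p 0.0093 to 0.111 over the 6 fits). It was also lost with only the groups compared in the fit (0.553). With Wnt1-Cre controls only, a fit that leaves 1 control SNI library, the call was lost as well, at log2 0.57. Injury raised Nsg1 1.59-fold in control (log2 0.67, SE 0.0918, adjusted p = 0.000317) and 1.58-fold in knockout mice (log2 0.66, SE 0.0957, adjusted p = 0.00033), a difference of -0.01 on the log2 scale (95% interval -0.29 to 0.27). In exons, 574 bases of Nsg1 lie opposite Stx18, whose log2 difference was 0.23 in naive knockout (adjusted p = 0.136) and -0.04 with injury in control (adjusted p = 0.836).

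Nrsn2 (chromosome 2, 152368755 to 152376638, minus strand) encodes neurensin-2, a small membrane protein of neuronal vesicles. It had 2.86, 4.71, 4.11, 4.28 and 3.51 CPM in control naive and 7.62, 10.4, 10.2 and 11.6 CPM in knockout naive libraries. After injury it had 3.96, 4.03 and 4.96 CPM in control and 9.86, 10.1 and 11.6 CPM in knockout libraries. No control library reached the lowest knockout library in either condition, and injured and naive libraries of 1 genotype overlapped. Knockout exceeded control 2.55-fold in naive ganglia (log2 1.35, SE 0.158, edgeR adjusted p = 0.000139) and 2.48-fold after injury (log2 1.31, SE 0.199, adjusted p = 0.0033). The call after injury was lost with only the groups compared in the fit (log2 1.30, adjusted p = 0.21). Injury gave log2 0.13 in control (95% interval -0.28 to 0.53, adjusted p = 0.80) and 0.09 in knockout mice (95% interval -0.27 to 0.44, adjusted p = 0.77). In exons, 241 bases of Nrsn2 lie opposite Gm14164, a transcript that was also higher in naive knockout than in control ganglia (log2 1.30, adjusted p = 0.0219). No source used here gives the strand setting of the counting. Reads of Nrsn2 and of this antisense partner may therefore not have been told apart. The same holds for the antisense partners of Plppr4, Islr2 and Nsg1.

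Counted over the 8 genes, 6 were called by edgeR higher and 0 lower in naive knockout ganglia, where 1.89% of all genes tested were called, 0.889% higher and 1% lower. The same 6 had knockout libraries wholly above the control ones, against 4.87% of all genes. After injury, 4 were called higher in knockout and 0 lower, where 1.04% of all genes were called, 0.666% higher and 0.377% lower. Knockout libraries lay wholly above control ones for 6 of the 8 genes, against 7.99% of all genes. Islr2, Plppr4, Nsg1 and Nrsn2 were called in both. These comparisons share no library, but they come from 1 fit with a shared estimate of the spread, so that the calls are not independent. DESeq2 called 6 in naive knockout and 6 after injury, and limma-voom 6 and 3. The shares of all genes called are those of edgeR, and they give no scale for the counts by these other tools. The number called after injury was 0 when the fit held only the SNI libraries, and 2 without knockout SNI replicate 21.

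By edgeR, injury in control mice raised 5 of the 8 genes, Gap43, Stmn2, Stmn4, Plppr4 and Nsg1, and lowered 0, where 2.48% of all genes were called, 2.12% higher and 0.359% lower. In knockout mice it raised 4, Gap43, Stmn4, Plppr4 and Nsg1, and lowered 0, where 10.1% of all genes were called, 7.17% higher and 2.94% lower. DESeq2 called 6 of the 8 genes in each genotype, and limma-voom 4, for which the edgeR shares of all genes called give no scale. In each genotype 6 of the 8 genes had injured libraries wholly above the naive ones, against 4.62% of all genes in control and 16.6% in knockout mice. The difference between the injury effects was called for 0 of the 8 genes and for 0% of all genes by edgeR, and 1 of the 8, Gap43, had an unadjusted p under 0.05. DESeq2 and limma-voom called 0 of the 8 as well. The median log2 difference over the 8 genes was 0.70 in naive knockout, 0.53 in knockout after injury, 0.57 with injury in control and 0.50 with injury in knockout, beside medians over all genes of 0, -0.01, 0.02 and -0.02. The counts are descriptions of genes chosen with such results known, and the shares of all genes are given for scale only.

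**Figure D3:**
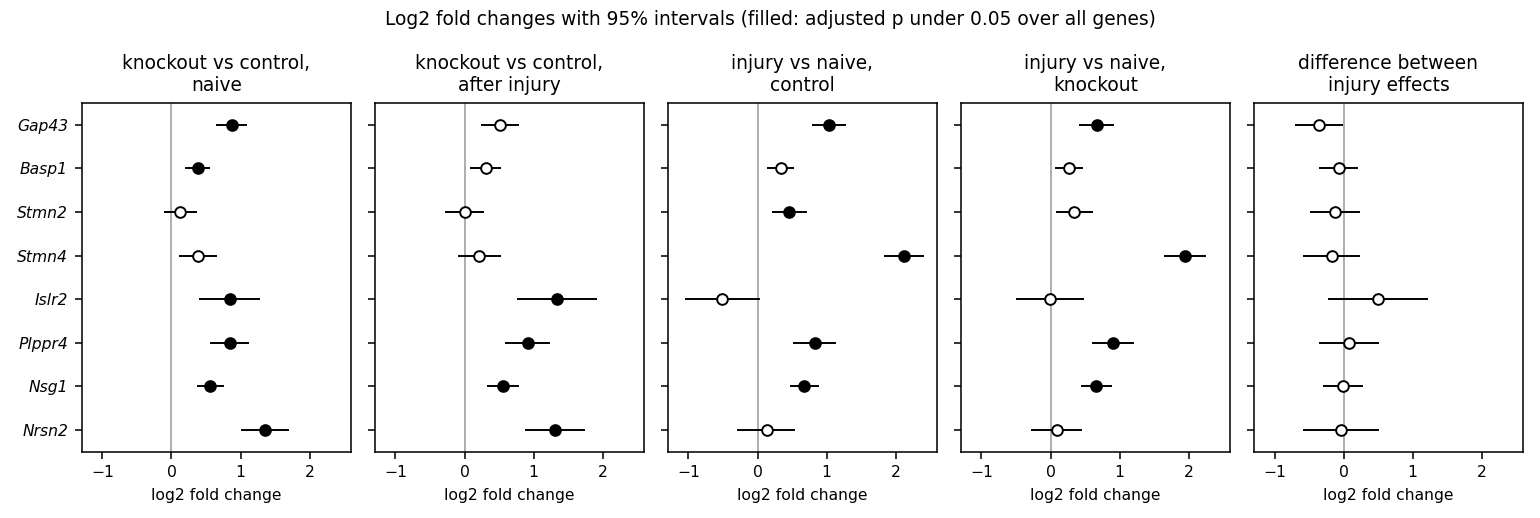
Log2 fold change (x axis) of each of the 8 genes in the 4 comparisons, and the difference between the injury effects as knockout minus control, with bars for the 95% interval and filled points for an adjusted p under 0.05 over all genes tested. Islr2 and Nrsn2 lie at or near 0 for injury in knockout and well above 0 for genotype, Stmn4 exceeds 1.9 for injury in both genotypes, and no point is filled in the last panel.

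The 8 genes fell into profiles that can be ranked by distance. The measure was the root mean square difference between log2 CPM profiles, each centred on its own mean, over the 15 libraries, which share depth and scaling, so that it is a description. Among the 8 genes, Gap43 was nearest to Nsg1 (0.197), Plppr4 to Gap43 (0.226), and Basp1 to Stmn2 (0.208). For scale, the SD of the gene's own profile was 0.591 for Gap43, 0.632 for Plppr4, 0.255 for Basp1 and 0.243 for Stmn2, so that the distance between the last pair was nearly as large as their own variation. Islr2 and Nrsn2 were nearest to each other (0.451, with profile SDs of 0.61 and 0.677), and Stmn4 was 0.614 from its nearest, Gap43, with a profile SD of 1.03. Outside the 8 genes, the 5 closest to Gap43 among 11760 genes that averaged 5 CPM or more were Plin2 (0.223), Myadm (0.248), Pde1c (0.251), Aldh1l1 (0.253) and Nova1 (0.271). Plin2, a coat protein of lipid droplets, had group means of 48.1, 67.9, 108 and 124 CPM in control naive, knockout naive, control SNI and knockout SNI. Pde1c, a calmodulin-dependent phosphodiesterase, had 121, 201, 173 and 271 CPM. Nova1, a neuronal splicing factor, had 4.43, 8.92, 6.94 and 10.9 CPM.

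Lists of related genes place the 8 among other growth cone components. Of 13 paralogs and functional relatives, such as the MARCKS proteins and the other stathmins, 2 were higher and 0 lower in naive knockout ganglia (median log2 0.14). Plppr5, a paralog of Plppr4, was at 3.87 CPM in control and 7.29 CPM in knockout naive ganglia (log2 0.91, SE 0.154, edgeR adjusted p = 0.00378), and Caly, a paralog of Nsg1, at 9.16 and 13.5 CPM (log2 0.56, SE 0.13, adjusted p = 0.0353). After injury 1 of the 13, Plppr2, another paralog of Plppr4, was higher in knockout (31.7 against 50.9 CPM, log2 0.67, SE 0.153, adjusted p = 0.0468). Injury raised 1 in control mice, Marcks (log2 0.65, SE 0.148, adjusted p = 0.025), which encodes a membrane-bound actin regulator. In knockout mice it raised Marcksl1 (log2 0.50) and Plppr2 (log2 0.51) and lowered Caly (log2 -0.93, adjusted p = 0.00126). With each library left out in turn, Plppr5 kept its call (adjusted p 0.00168 to 0.0184), as did the fall of Caly with injury (0.00127 to 0.0154). The naive call of Caly was lost without any library but knockout naive replicate 5 (adjusted p up to 0.147). The call of Plppr2 after injury was lost without control SNI replicates 18 or 23 or knockout SNI replicates 19 or 21 (up to 0.179), and that of Marcks without control naive replicates 2, 6 or 7 or control SNI replicate 23 (up to 0.0636). In knockout mice the rises of Marcksl1 and Plppr2 were both lost without knockout naive replicates 4 or 8 or knockout SNI replicates 19 or 21, and that of Plppr2 also without knockout naive replicate 5 (up to 0.146 and 0.133). An 8mer or 7mer-m8 match to the deleted microRNAs was found in 2 of the 13, against 29.4% of all tested genes with a UTR.

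The list of 36 growth cone cytoskeleton genes had 0 members called in naive knockout ganglia (median log2 0.04), with 3 at an unadjusted p under 0.05 in edgeR and 0 called by DESeq2 or limma-voom. An 8mer or 7mer-m8 of any of the 3 microRNAs was found in 17 of the 36 genes, and an 8mer in 8. Of all tested genes with a UTR, 29.4% and 10.2% held them. The median UTR was 1938 bases in the list against 1361 for all tested genes. After injury 2 of the 36 were higher in knockout, Fscn1, which bundles actin in filopodia (36.1 against 69.8 CPM, log2 0.94, SE 0.215, adjusted p = 0.0481), and Cap1, an actin-binding protein (302 against 384 CPM, log2 0.34, SE 0.077, adjusted p = 0.0402). Both calls were lost without control SNI replicate 23 or knockout SNI replicates 19 or 21. That of Cap1 was also lost without knockout SNI replicate 13 (adjusted p up to 0.206 for Fscn1 and 0.189 for Cap1). By contrast, 13 genes of the list were called higher without control SNI replicate 15, a fit whose control SNI mice were all wild type. That fit called 3558 genes in all between the injured genotypes, against 177 with all libraries, so that the rise in calls was not particular to the list. Injury in control raised 1, Myo10, the motor of filopodia (35.4 to 57.9 CPM, log2 0.72, SE 0.159, adjusted p = 0.0199). That call was lost without control naive replicate 7 or control SNI replicates 15 or 18 (adjusted p up to 0.0571). Injury in knockout, where 10.1% of all genes were called, raised 9 of the 36 and lowered 1. The 9 became 5 without knockout SNI replicate 19 and 14 with only the groups compared in the fit. Among the risers, Myo10 went from 33.4 to 87.9 CPM (log2 1.40, adjusted p = 4.87e-05), Fscn1 from 31.7 to 69.8 CPM (log2 1.14), Gprin1 from 9.61 to 19.1 CPM (log2 1.00) and Enah, an actin elongation factor, from 74.6 to 132 CPM (log2 0.82). Crmp1 (log2 0.61) and Cttn (log2 0.47) rose as well. Of these 6 calls, that of Cttn was lost with a library left out, knockout SNI replicate 19 (adjusted p = 0.0503). The other 4 calls, the rises of Dpysl5, Map1b and Cap1 and the fall of Fez1, were lost without that library as well, that of Map1b also without knockout naive replicate 8 and that of Fez1 also without knockout naive replicate 5 or knockout SNI replicate 21 (adjusted p up to 0.0847, 0.0795, 0.0686 and 0.076). For Myo10 and Fscn1 the difference between the injury effects was log2 0.68 and 0.83, with an adjusted p of 0.365 for each, so that a larger rise in knockout was not established. Without control SNI replicate 15, the difference between the injury effects was called higher for 5 of the 36 genes. The same fit called this difference for 1235 genes in all, against 0 with all libraries.

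Of 18 adhesion and membrane genes, 17 were tested and 0 were called in naive knockout ganglia (median log2 0.06, 2 at an unadjusted p under 0.05, 0 by DESeq2 or limma-voom). After injury 0 were called between the genotypes by edgeR, with 7 at an unadjusted p under 0.05, 2 called by DESeq2 and 0 by limma-voom. Without control SNI replicate 15, which leaves only wild type mice in control SNI, 6 were called higher and 3 lower. That fit called 3558 genes in all between the injured genotypes, against 177 with all libraries. Chl1, a cell adhesion molecule of the L1 family, rose with injury from 129 ± 8.25 (SD, n = 5) to 307 ± 62.3 CPM (n = 3) in control (log2 1.25, SE 0.126, edgeR adjusted p = 1.39e-05) and from 146 ± 21.7 (n = 4) to 387 ± 48.7 CPM (n = 3) in knockout mice (log2 1.40, SE 0.134, adjusted p = 4.19e-06). Injury in knockout also raised Ncam1 (log2 0.69) and Thy1 (log2 0.34) and lowered Nrn1, a membrane-anchored neuritin (log2 -0.58, adjusted p = 0.0155). Chl1 kept both calls with each library left out. The other 3 lost theirs without knockout SNI replicate 19, and Nrn1 also without knockout naive replicate 5 or knockout SNI replicate 21 (adjusted p up to 0.0649 for Ncam1, 0.0823 for Thy1 and 0.102 for Nrn1). An 8mer or 7mer-m8 was found in 10 of the 17 tested genes, whose median UTR was 2675 bases. Of all tested genes with a UTR, 29.4% held such a match, and their median UTR was 1361 bases. The difference between the injury effects was called for 0 genes in each of the 3 lists by edgeR, DESeq2 and limma-voom, with 2, 9 and 4 genes at an unadjusted p under 0.05 in edgeR.

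**Figure D4:**
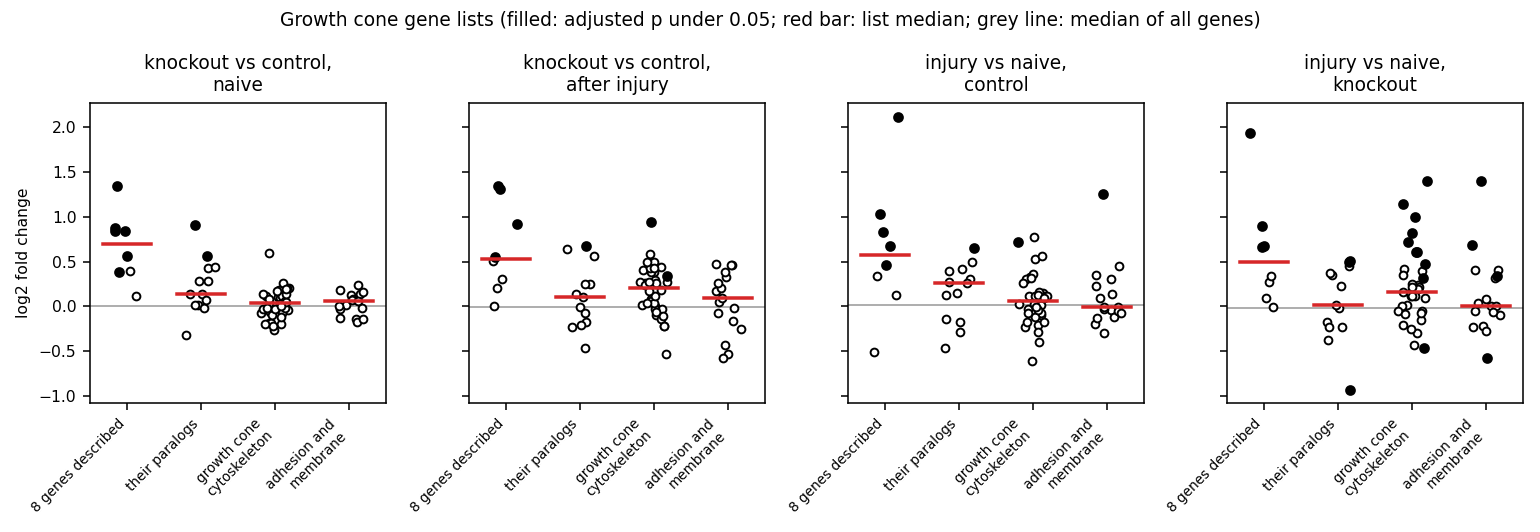
Log2 fold change (y axis) of each gene of 4 lists in 4 comparisons, with filled points for an adjusted p under 0.05 over all genes tested, red bars for the list median and a grey line for the median of all genes. In naive knockout ganglia the 8 genes have a median of 0.70, while the cytoskeleton and adhesion lists have medians of 0.04 and 0.06 and no filled point.

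Markers of the cells in the ganglion were read beside these results. The 12 sensory neuron markers summed to 8430 to 9530 CPM in control naive, 8960 to 9840 in knockout naive, 7730 to 9320 in control SNI and 9110 to 9370 in knockout SNI, and 0 of 12 were called in naive knockout, in knockout after injury or with injury in control (1, 6 and 5 at an unadjusted p under 0.05 in edgeR, and 0, 2 and 0 by DESeq2). With injury in knockout 2 of 12 were called by edgeR, Isl1 lower (90.9 to 67.8 CPM, log2 -0.42, adjusted p = 0.0115) and Elavl3 higher (122 to 186 CPM, log2 0.61, adjusted p = 0.00646), and 3 by DESeq2 and by limma-voom. The 5 markers of injured neurons, Atf3, Sprr1a, Gal, Npy and Ecel1, summed to 16.3 to 25.7 CPM in control naive and 14 to 24 CPM in knockout naive libraries, and 0 of 5 were called between them (1 at an unadjusted p under 0.05). In naive knockout, 1 of the 5 had a positive log2 difference from control (median log2 -0.48). Atf3 had the smallest p, at 5.61 against 7.86 CPM (log2 -0.48, edgeR unadjusted p = 0.0196, adjusted p = 0.29). The part of these markers in the higher Gap43, Plppr4, Nsg1 and Nrsn2 of uninjured knockout ganglia was not tested. After injury the same markers summed to 487 to 633 CPM in control and 668 to 1090 CPM in knockout libraries, and 1 of 5, Ecel1, was called higher in knockout (log2 1.72, adjusted p = 0.0315). Their part in the genotype differences after injury was not tested. The 8 macrophage markers summed to 103 to 124 CPM in control naive, 123 to 205 in knockout naive, 174 to 281 in control SNI and 210 to 283 in knockout SNI. By edgeR, 6 of 8 were called higher with injury in control and 4 of 8 in knockout mice. In naive knockout 0 of 8 were called, though all 8 log2 differences were positive (median 0.40) and 4 had an unadjusted p under 0.05 in edgeR. The 5 skeletal muscle markers summed to 3.74 to 89.6, 15 to 169, 4.9 to 260 and 143 to 1110 CPM in the same order. The 5 markers of myelinating Schwann cells summed to 7750 to 11900, 8500 to 9900, 6350 to 6960 and 5070 to 9800 CPM, so that the control SNI libraries lay wholly below the control naive ones, and 0 of 5 were called by edgeR in any comparison (3 at an unadjusted p under 0.05 and 1 by DESeq2 for injury in control). The part of these 3 lists in the results was not tested.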

How the data were processed

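The deposited table holds raw read counts per Ensembl gene for 39179 identifiers in 15 libraries. Per the labels' protocols, RNA was isolated with Trizol and a stranded mRNA kit was used for the libraries. Tools listed by the submitters' processing notes, without role or order, are HTSeq 0.6.1, TopHat2 2.0.4, DESeq2, Cufflinks and SAMtools, with the build GRCm38. No source used here gives the annotation release, the strand setting or the handling of multiply mapped reads. GENCODE M21 gave symbols, coordinates and 3′ UTRs. It matched 37607 identifiers, and those without a symbol hold 0.523% of the counts.

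After the filterByExpr filter by group (minimum count 10), 16976 genes were tested, and the remainder carried 0.131% of all reads counted. A single model of 4 group means was fitted to all libraries in edgeR 4.0.16 (TMM, estimateDisp, robust quasi-likelihood F test, two-sided, 11 residual degrees of freedom), with Benjamini-Hochberg adjustment over all genes tested and a threshold of 0.05. The SE is the log2 fold change divided by the square root of F. The fit was tested on simulated data. Alternatives used DESeq2 1.42.0 and limma 3.58.1 in R 4.3.3, other scalings, no filter, a threshold of 0.01, fewer groups, Wnt1-Cre controls only, and each library left out. Figures were drawn with Python 3.11.15 and matplotlib 3.10.9.

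The 8 genes, the lists, the markers and the tests were chosen with earlier results of these data known. Named are the 8 genes, up to 6 genes of each list with the smallest p in a comparison, and the 5 genes with the profile closest to that of Gap43. Not every gene these rules give is named. Replicates are separate animals.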

Additional observations from a re-analysis of the deposited data

Results flagged for a closer look

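Plppr4 in control naive replicate 2 was at 10.6 CPM, above the other 4 control naive libraries, which lay between 8.76 and 9.24 CPM. Its gap to the nearest library was 0.716 of the range of the group on the log2 scale, against a critical value of 0.71 for 5 samples. This was 1 of 16 groups examined, and chance flags about 1 in 20. Control naive replicate 2 was also above its group mean for 7 of the 8 genes, whereas each other library was above its group mean for 2 to 6. The naive difference in Plppr4 between knockout and control was called in all 18 alternative fits, the one without this library included.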

How the results depend on the processing

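No fold change of the 8 genes reversed a call under any alternative. Of 344 values under settings other than leaving out a library, 318 kept their side of the threshold, 16 lost a call and 10 gained one, and of 360 values with a library left out 330 kept it, 25 lost a call and 5 gained one. The calls of Gap43, Plppr4, Nsg1 and Nrsn2 in naive knockout held in all 18 alternatives. The number of the 8 genes called in knockout after injury was 4, and became 2 at an adjusted p under 0.01 and 0 with only the groups compared in the fit. With a library left out it ranged from 2 to 6, and the corresponding ranges were 4 to 6 in naive knockout, 4 to 5 for injury in control, 4 to 4 for injury in knockout and 0 to 0 for the difference between injury effects. Over all genes, the number called in knockout after injury was 177, and it was 0 with only the groups compared and 3558 without control SNI replicate 15. For the difference between injury effects it was 0, and 1235 without that library. Its removal leaves only wild type mice in control SNI, so that among injured mice the knockout cannot be told apart from carrying Wnt1-Cre. For the other comparisons, the numbers over all genes were 321 (124 to 1017 over all alternatives) in naive knockout, 421 (212 to 1506) for injury in control and 1717 (569 to 4438) for injury in knockout. The cause was not tested. No paired analysis was possible because the groups share no replicate numbers. The smallest count behind a level was 15, for Islr2 in control SNI replicate 23.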
